A study of Homo sapiens with 21 samples.

Results

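Mitosis and G2/M genes were followed in tumors grown from A549-Luc2 cells, a human lung adenocarcinoma line that carries a luciferase reporter. They are 38 genes that code for mitotic cyclins and kinases, spindle checkpoint proteins, kinesins, kinetochore proteins and their partners. They were taken by gene symbol from a table of 60651 human genes, and all 38 were found there. The cells were injected with Matrigel into the flank of female athymic nu/nu mice aged 6 to 8 weeks, which lack mature T cells. When tumors averaged 80 to 100 mm3, mice were randomized to groups of 10, and 7 tumors of each group were sequenced. Control mice received the carrier of DMSO, ethanol, PEG400 and corn oil alone. Oxy186 and Oxy210 mice received the named compound, a semisynthetic oxysterol derivative, in that carrier at 50 mg/kg once a day by oral gavage. All 21 tumors come from 1 cell line, so the replicates are tumors and not independent lines. The study asked which genes and pathways the 2 compounds change in the tumor.

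Cells enter mitosis when cyclin B bound to CDK1 becomes active, after CDC25 phosphatases remove its inhibitory phosphates. Aurora and Polo-like kinases and kinesins then build the spindle, and the spindle checkpoint holds back the anaphase-promoting complex (APC/C) until each chromosome is attached. Most of these genes are transcribed mainly in late S, G2 and M phase, through the MuvB complexes and FOXM1, so their level in a tissue is widely read as a measure of how many cells are dividing. In bulk tumor RNA, fewer dividing cells and less mitotic RNA per dividing cell cannot be told apart.

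MuvB complexes bind the cell cycle genes homology region, with the letters TTTGAA at its core, and the factor NF-Y binds boxes with the letters CCAAT nearby. RefSeq promoters (GRCh38.p14, 250 bases before to 50 after the start) were at hand for 31 of the 38 genes, 26 of them with a single promoter. On either strand, the core was found in 20 of these 26 (76.9%), against 16.0% of the 22114 genes with a single promoter. The box was found in 20 of 26 (76.9%, against 36.2%), and both in 16 of 26 (61.5%, against 6.40%). A match is a description of the letters and not evidence of binding in these tumors. The 110 bases upstream of the start are printed for 5 genes of different roles that hold both: CCNB2 (chr15:59105036-59105145, plus strand), CDC20 (chr1:43358871-43358980, plus), PLK1 (chr16:23678779-23678888, plus), KIF11 (chr10:92593020-92593129, plus) and MKI67 (chr10:128126424-128126533, minus). Capitals mark the core, the box and the reverse complement of each, and a core and a box overlap once in MKI67.
CCNB2: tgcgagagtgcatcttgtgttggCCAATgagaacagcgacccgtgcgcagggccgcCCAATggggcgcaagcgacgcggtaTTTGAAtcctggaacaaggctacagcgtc
CDC20: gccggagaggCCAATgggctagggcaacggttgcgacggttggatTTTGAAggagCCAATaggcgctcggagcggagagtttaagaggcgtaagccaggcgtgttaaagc
PLK1: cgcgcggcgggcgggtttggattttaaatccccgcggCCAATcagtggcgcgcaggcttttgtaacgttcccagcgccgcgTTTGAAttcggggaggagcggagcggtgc
KIF11: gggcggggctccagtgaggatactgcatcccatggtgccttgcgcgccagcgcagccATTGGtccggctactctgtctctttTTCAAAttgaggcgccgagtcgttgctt
MKI67: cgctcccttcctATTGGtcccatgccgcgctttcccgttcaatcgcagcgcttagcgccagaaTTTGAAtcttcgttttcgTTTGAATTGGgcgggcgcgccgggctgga
In CCNB2, PLK1 and KIF11 the core lies nearer to the start than any box. In CDC20 it lies between 2 boxes, and MKI67 holds 2 cores.

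Reads had been assigned to the human or mouse genome before counting, and total counts on human genes ran from 13787493 to 17865119 per tumor, with the groups overlapping. Apart from NUSAP1 and PRC1, each gene had between 51 counts (CDC25C) and 7486 (TOP2A) in every library. NUSAP1, a microtubule-bundling protein, had only 2 to 19 counts per library and PRC1, which bundles the central spindle, 5 to 28. In GENCODE 44, 86.8% of the exon bases of NUSAP1 and 57.6% of those of PRC1 overlap other genes on the same strand, so the counts of both are uncertain. They are left out where 36 genes are given. The tumor cell label was checked with 7 epithelial markers, all with counts, whose summed level was 9256 to 13579 CPM in Control, 8659 to 15391 in Oxy186 and 7365 to 13017 in Oxy210 tumors. The 14 stroma, vessel and blood markers summed to 132 to 242, 117 to 246 and 89.5 to 164 CPM. Among them LUM had 566 to 3348 counts per library, COL1A1 256 to 1031 and LYZ 49 to 401. COL1A2 was at 0 in all Control tumors and VWF in all Oxy186 tumors. Their part in the results was not tested.

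Per length of all annotated exons of a gene, which can exceed its main transcript, TOP2A was the highest of the 38 in Control tumors. Its mean was 39.2 RPKM. TOP2A codes for the topoisomerase that untangles sister chromosomes. Cyclin B1 (CCNB1) followed at 33.1 RPKM, CDC25B at 30.4 and UBE2C, the ubiquitin-conjugating enzyme of the APC/C, at 28.2. Among the lowest were the checkpoint kinase TTK at 3.44, the kinesin KIF14 at 2.82 and the kinetochore kinesin CENPE at 1.84 RPKM. The highest and lowest of these members thus differed more than 10-fold on this scale, before NUSAP1 (0.271) and PRC1 (0.207) are considered.

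No mitotic gene passed the test in either treated group when all 7 tumors were used. In Oxy186 against Control, edgeR's quasi-likelihood test called 0 of the 38 at an adjusted p of 0.05 or less, as it called 0% of 16291 genes. None reached an unadjusted p under 0.05, where 3.79% of all genes did. In Oxy210 against Control it called 0 of 38 and 0% of 16396 genes, and 0 of 38 had an unadjusted p under 0.05, where 13.8% of all genes did. DESeq2 and limma voom also called 0 of 38 in both, though DESeq2 called 21 genes higher and 71 lower of all 16396 in Oxy210. At an unadjusted p under 0.05, of the 3 tools, only limma voom had 1 gene, in Oxy210. The 2 comparisons share the 7 Control tumors. Fitted log2 fold changes were above 0 for 30 of the 38 genes in Oxy186 (median 0.13, against -0.01 for all genes) and for 23 in Oxy210 (median 0.09, against 0.01).

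The intervals limit how large a change these tumors could hide. In Oxy186 the 95% intervals of the 36 well-counted genes ran from -0.88 to 0.92 on the log2 scale, and in Oxy210 from -0.87 to 0.81. All 36 therefore lay within a 2-fold change in either direction, in both comparisons. The precision differed between genes, with SEs from 0.13 (BUB3) to 0.31 (CDC20) in Oxy186 and from 0.10 to 0.31 for the same genes in Oxy210, and a p above the threshold does not show that levels were equal.

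**Figure D1:**
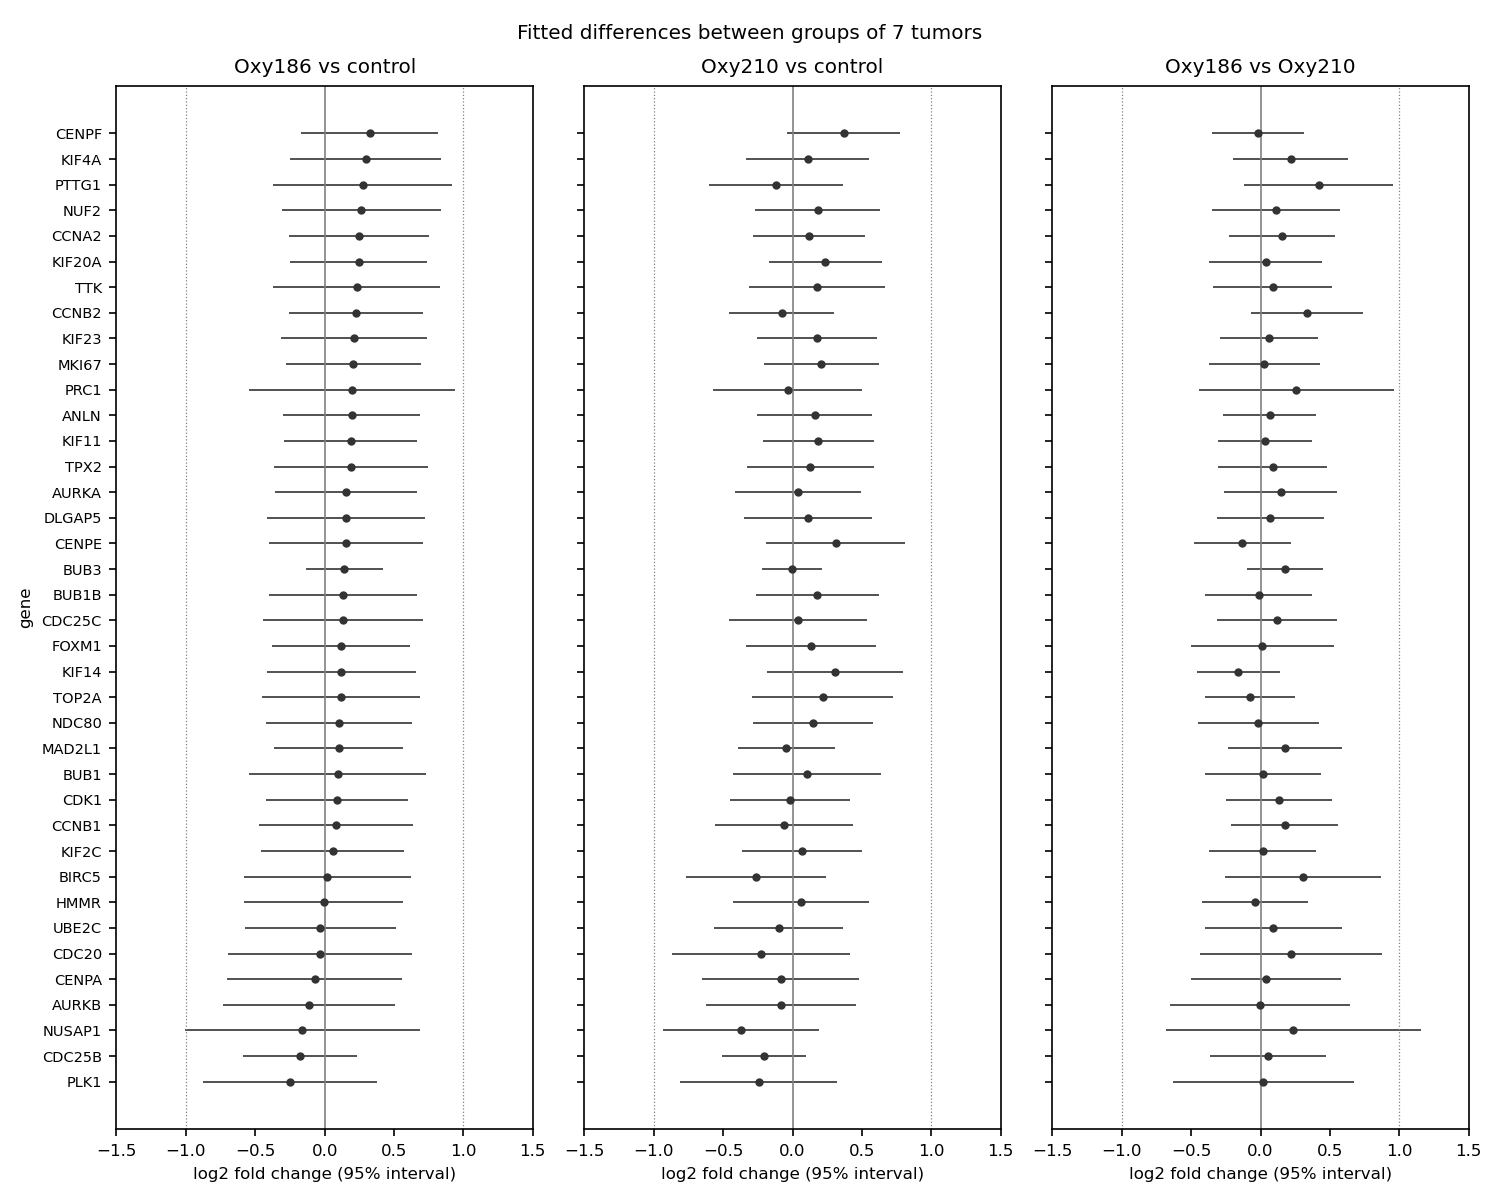
Fitted log2 fold changes (points) with 95% intervals (lines) of the 38 genes in Oxy186 against Control, Oxy210 against Control and Oxy186 against Oxy210, each with 7 tumors a group. Dotted lines mark a 2-fold change; all intervals cross 0, and only those of NUSAP1 pass a dotted line.

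The cyclin and CDK1 genes showed how the groups overlap. CDK1, the kinase that drives entry into mitosis, had a lowest, median and highest level of 5.47, 5.85 and 6.80 log2 CPM in Control, 5.76, 6.18 and 6.95 in Oxy186 and 5.82, 6.19 and 6.62 in Oxy210 tumors. CCNB1 was at 5.36, 6.04 and 7.20 in Control, 5.91, 6.17 and 6.99 in Oxy186 and 5.85, 6.26 and 6.81 in Oxy210. For both genes the Control tumors covered the widest range, from Control r2 at the bottom to Control r6 at the top, and the treated tumors lay mostly inside it. The log2 fold change of CDK1 was 0.09 ± 0.24 (SE) in Oxy186 and -0.02 ± 0.21 in Oxy210, and that of CCNB1 0.08 ± 0.26 and -0.06 ± 0.24. The signs in Oxy210 depend on the averaging, since the mean of log2 CPM was 6.19 in Oxy210 against 6.15 in Control for CDK1 and 6.22 against 6.20 for CCNB1. All 4 genes of the cyclin group (CCNA2, CCNB1, CCNB2 and CDK1) were above 0 in Oxy186, from 0.08 to 0.25, and 1 of 4 in Oxy210 by the fitted values.

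Among the mitotic kinases, PLK1, which acts from entry to cytokinesis, had the lowest fold change of the 38 in Oxy186. Its levels were 4.30, 5.26 and 6.07 log2 CPM (lowest, median, highest) in Control, 3.98, 5.14 and 5.99 in Oxy186 and 4.17, 4.92 and 5.83 in Oxy210. The groups overlapped over nearly their whole ranges, and the log2 fold changes of -0.25 ± 0.30 and -0.24 ± 0.27 (SE) did not pass the test. AURKB, the kinase of the chromosomal passenger complex, was at 4.15, 5.20 and 5.73 in Control, 4.23, 4.84 and 6.06 in Oxy186 and 4.23, 4.94 and 5.93 in Oxy210. AURKA, which matures centrosomes, was at 4.43, 5.06 and 6.00, then 4.79, 5.20 and 5.89, then 4.87, 5.05 and 5.83. Neither kinase differed between groups beyond its spread, with log2 fold changes of -0.11 (AURKB) and 0.15 (AURKA) in Oxy186 and -0.08 and 0.04 in Oxy210. The phosphatase CDC25B had fold changes of -0.18 ± 0.20 and -0.21 ± 0.14. Those of CDC25C, a related phosphatase that also activates CDK1, were 0.13 and 0.04.

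The highest fold changes included kinesins and kinetochore genes, with securin (PTTG1) also among the 3 highest in Oxy186. Centromere and kinetochore genes also reached down to -0.07 in Oxy186 and -0.09 in Oxy210. CENPF, a large kinetochore protein, was at 5.46, 5.91 and 7.05 log2 CPM in Control, 6.04, 6.65 and 6.99 in Oxy186 and 6.38, 6.59 and 6.84 in Oxy210. No tumor of either treated group was as low as the lowest Control tumors, yet Control r6 stood above all of them. CENPF had the smallest unadjusted p of the 38 in both comparisons, 0.184 in Oxy186 (log2 fold change 0.32 ± 0.23, SE) and 0.0740 in Oxy210 (0.37 ± 0.19), with adjusted p in edgeR of 0.862 and 0.393. All 7 kinesins were above 0 in both comparisons, from 0.06 to 0.30 in Oxy186 and from 0.07 to 0.31 in Oxy210, and 0 of 7 passed. KIF4A, which compacts chromosomes and works at the central spindle, had 0.30 ± 0.26 in Oxy186, while KIF14 and CENPE had 0.31 ± 0.23 and 0.31 ± 0.24 in Oxy210.

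KIF11, the motor that separates spindle poles, was at 4.87, 5.28 and 6.32 log2 CPM in Control, 5.26, 5.97 and 6.32 in Oxy186 and 5.63, 5.78 and 6.16 in Oxy210. KIF20A, a cytokinesis motor, was at 4.14, 4.62 and 5.52, then 4.36, 5.05 and 5.65, then 4.79, 5.03 and 5.67. NDC80, which binds microtubules at the kinetochore, was at 2.40, 3.01 and 3.81, then 2.69, 2.93 and 3.85, then 2.82, 3.29 and 3.57. In these 3 genes the Oxy210 tumors covered a narrower range than the Control tumors and overlapped with them.

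The checkpoint kinase BUB1 was at 3.70, 4.12 and 5.65 log2 CPM in Control, 3.87, 4.71 and 5.21 in Oxy186 and 4.45, 4.75 and 5.15 in Oxy210. All 5 checkpoint genes (BUB1, BUB1B, BUB3, MAD2L1 and TTK) were above 0 in Oxy186, from 0.09 to 0.23, and 3 of 5 in Oxy210. CDC20, the APC/C activator that the checkpoint restrains, was at 3.78, 4.88 and 5.76 in Control, 3.90, 5.30 and 5.55 in Oxy186 and 3.56, 4.56 and 5.52 in Oxy210. UBE2C was at 4.26, 5.04 and 5.90, then 4.41, 5.22 and 5.85, then 4.44, 4.94 and 5.59. Securin (PTTG1), which APC/C destroys to start anaphase, had a fold change of 0.27 ± 0.31 (SE) in Oxy186 and -0.12 ± 0.23 in Oxy210.

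MKI67, the gene of the Ki-67 antigen used to grade proliferation, was at 6.00, 6.85 and 7.59 log2 CPM in Control, 6.37, 7.18 and 7.57 in Oxy186 and 6.71, 7.00 and 7.61 in Oxy210. TOP2A was at 7.06, 7.50 and 8.97, then 7.60, 8.04 and 8.53, then 8.01, 8.09 and 8.60. The proliferation marker was thus no lower in treated than in Control tumors by its median, and its log2 fold changes of 0.21 ± 0.23 (SE) in Oxy186 and 0.21 ± 0.20 in Oxy210 did not pass. FOXM1, the transcription factor of G2/M genes, was at 4.16, 5.16 and 5.72 in Control, 4.54, 5.12 and 5.85 in Oxy186 and 4.43, 5.22 and 5.81 in Oxy210. BIRC5 (survivin), of the chromosomal passenger complex, was at 5.27, 6.07 and 6.86, then 5.30, 6.36 and 6.96, then 5.24, 5.84 and 6.57. The fold change of BIRC5 was 0.02 ± 0.29 in Oxy186 and -0.26 ± 0.24 in Oxy210.

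**Figure D2:**
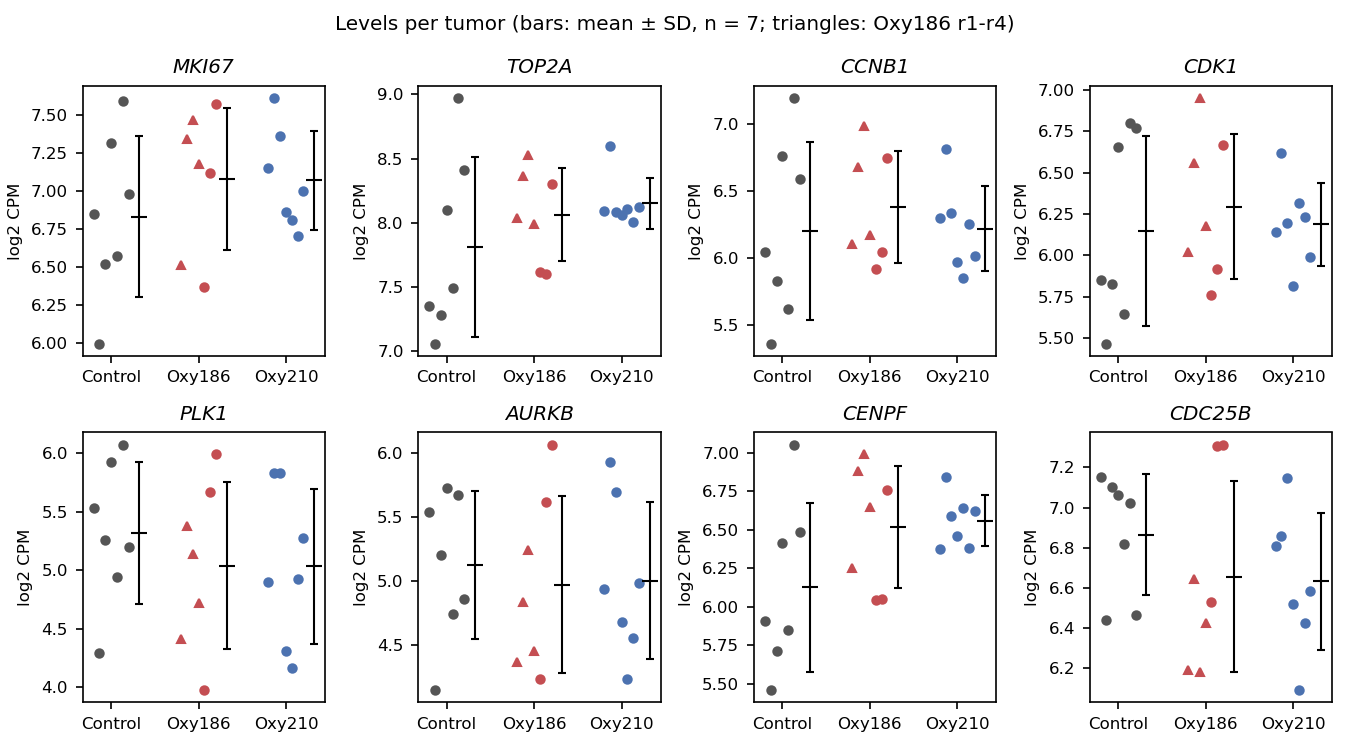
Level in log2 CPM of 8 genes in each tumor, by group, with the mean ± SD of 7 tumors beside the points (each vertical axis has its own range and does not start at 0). Triangles are Oxy186 r1-r4, and the groups overlap in every panel. Control tumors are spread from the lowest to the highest level for TOP2A and CCNB1. For MKI67 and CDK1 they are spread from the lowest to nearly the highest.

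The 2 compounds, given at the same dose, were compared directly in 1 pair of groups. In Oxy186 against Oxy210, edgeR called 0 of 38 genes (0% of 16361 genes), and 0 of 38 had an unadjusted p under 0.05, where 4.06% of all genes did. DESeq2 and limma voom called 0 of the 38 as well, and of all genes DESeq2 called 13 higher and 1 lower. The median log2 difference of the 38 was 0.07, with 30 above 0 (all genes -0.01). The largest differences were 0.42 ± 0.25 (SE) for PTTG1, 0.33 ± 0.19 for CCNB2 and 0.31 ± 0.27 for BIRC5, and at the other end -0.16 ± 0.14 for KIF14, -0.13 ± 0.17 for CENPE and -0.07 ± 0.15 for TOP2A. CCNB2, a second mitotic cyclin B, had the smallest unadjusted p (0.101, adjusted p 1.00 in edgeR). The 95% intervals of the 36 well-counted genes ran from -0.65 to 0.96, so a difference of up to nearly 2-fold could not be told from none in single genes.

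Tumors of the same group differed widely, and the mitotic genes moved together from tumor to tumor. The level of a tumor was taken as the mean over the 38 genes of log2 CPM minus the gene's mean over 21 tumors. In Control it was -0.17, -0.87, -0.35, 0.34, -0.40, 0.66 and 0.22 for r1 to r7. In Oxy186 it was -0.30, 0.32, 0.49, -0.07, -0.46, -0.03 and 0.53, and in Oxy210 -0.06, 0.45, 0.19, -0.19, -0.14, -0.15 and -0.01. Both the lowest and the highest tumor of the series were Control tumors. In Control r2, 31 of the 38 genes had their lowest level of all 21 tumors and 1 was above its own mean. In Control r6, all 38 were above their own mean and 15 had their highest level. In Oxy186 r7 all 38 were above their mean too, and Oxy186 r3 held the highest level of 13 genes.

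**Figure D3:**
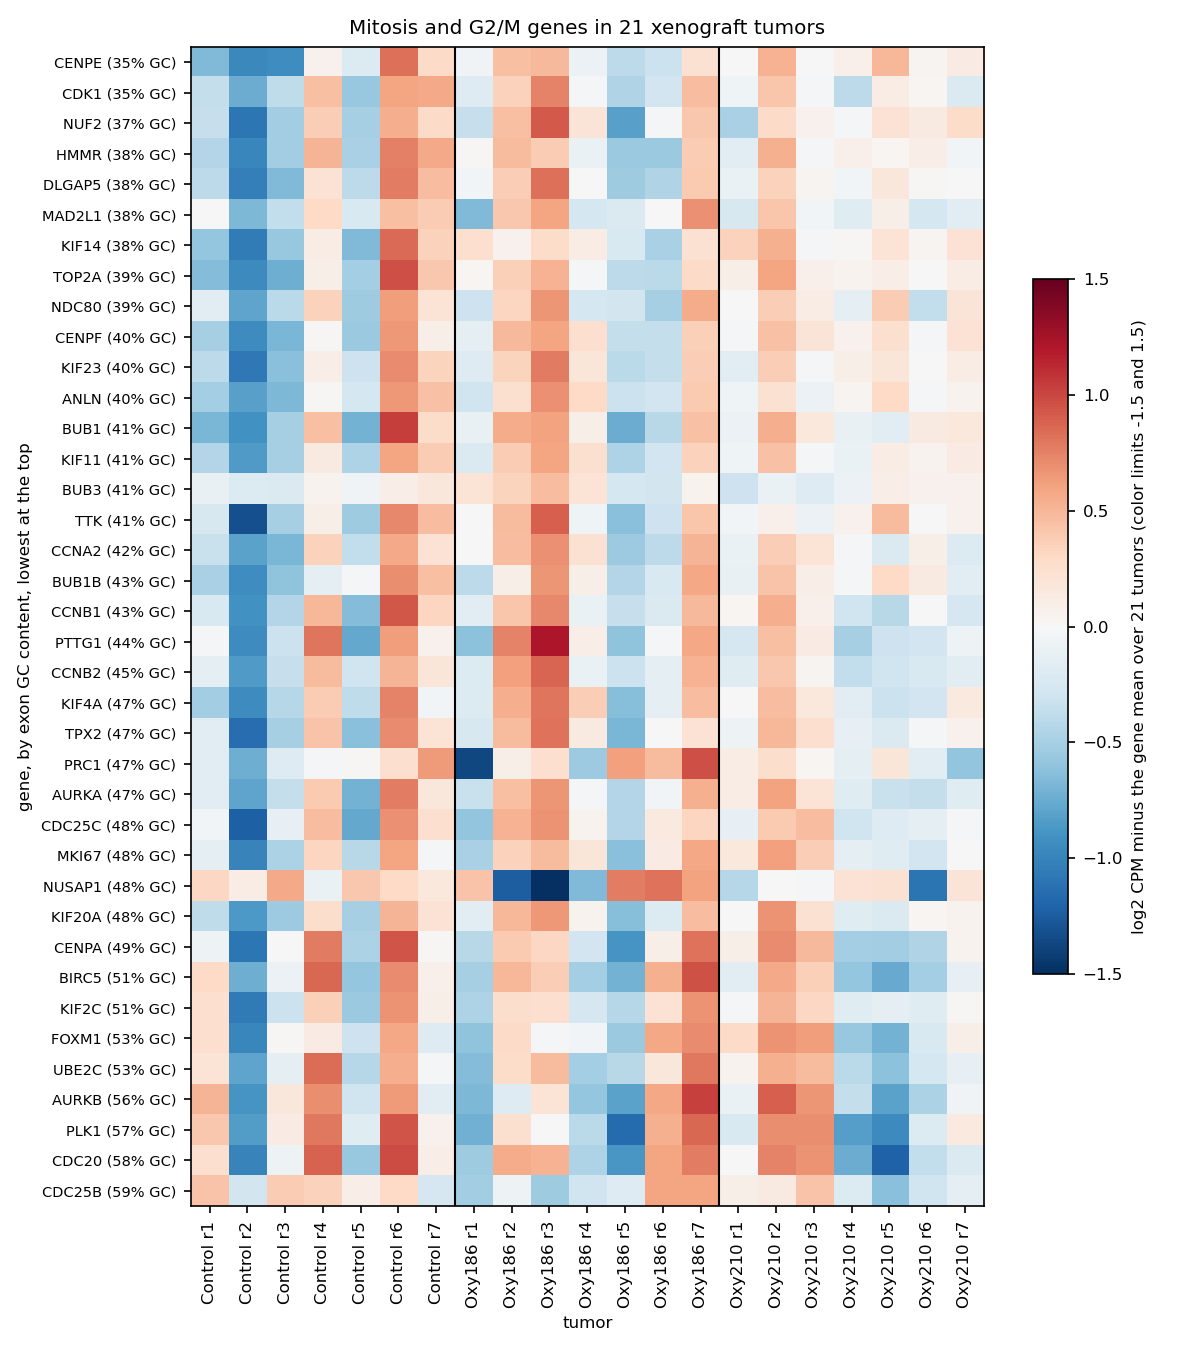
Level of the 38 genes in 21 tumors as log2 CPM minus the gene's mean over all tumors (color), with genes ordered by the GC content of their exons. Columns such as Control r2 and Control r6 are nearly 1 color from top to bottom. In others, such as Control r1 and r3, Oxy186 r1 and r6, and Oxy210 r5, AT-rich genes (top) and GC-rich genes (bottom) differ.

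After group means were subtracted, the 630 pairs of the 36 genes had a median Pearson r of 0.82 across 21 tumors, and 87.6% of pairs were above 0.5. Each of them against 13572 other genes had a median r of 0.02. These values describe libraries that share their scaling and base composition, and they carry no test. DLGAP5, a spindle assembly protein, followed the others most closely (median r 0.90), then KIF11 (0.89) and CENPF (0.88). CDC25B followed them least (0.20), ahead of BUB3 (0.57), FOXM1 (0.61), AURKB (0.64) and PLK1 (0.67). With the GC trend of each library removed, the median rose to 0.88, no pair of 630 was below 0 where 11 had been, and CDC25B reached 0.72 and PLK1 0.88.

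The spread among tumors was not the same in each group. The median SD of the 36 genes was 0.589 log2 CPM in Control, 0.471 in Oxy186 and 0.264 in Oxy210. For all 13608 genes that averaged 1 log2 CPM or more it was 0.280, 0.366 and 0.257. With the GC trend removed, the medians of the 36 genes were 0.561, 0.439 and 0.283 and those of all genes 0.235, 0.289 and 0.202. The mitotic genes had the larger median in all 3 groups on both scales, by little in Oxy210 before removal of the trend, and the difference in spread between groups was not tested. Without Control r2 the median fold change of the 38 was 0.04 in Oxy186 and -0.03 in Oxy210, and without Control r6 it was 0.34 and 0.24. Other single tumors moved it as well. In Oxy186 it was 0.05 without Oxy186 r3, and in Oxy210 it was 0.003 without Control r5, 0.004 without Oxy210 r2 and 0.018 without Control r3. The median in Oxy210 was below 0 only without Control r2.

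Other G2/M genes and DNA replication genes outside the list moved with it from tumor to tumor. For 56 other G2/M genes the level was -0.69 in Control r2, 0.66 in Control r6 and 0.54 in Oxy186 r7, and for 19 DNA replication genes -0.64, 0.57 and 0.49. In edgeR, 0 of the 56 and 0 of the 19 passed in the 3 comparisons of 7 against 7 tumors, as did 0 of 14 APC/C subunits, 0 of 12 DREAM and MuvB genes, 0 of 7 epithelial markers and 0 of the tested stroma, vessel and blood markers. At an unadjusted p under 0.05, Oxy210 against Control had 1 of 56 other G2/M genes, 1 of 19 replication genes, 2 of 14 APC/C subunits, 2 of 12 DREAM genes, 2 of 7 epithelial and 3 of 7 stroma, vessel and blood markers, where 13.8% of all genes did. Oxy186 against Control had 1 epithelial marker (3.79% of all genes), and Oxy186 against Oxy210 had 2 APC/C subunits and 2 epithelial markers (4.06% of all genes). The largest changes among the cell cycle genes in Oxy210 were SMC4, a condensin subunit, with a log2 fold change of 0.57 ± 0.21 (SE), and ANAPC11, the RING subunit of the APC/C, with -0.55 ± 0.17.

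**Figure D4:**
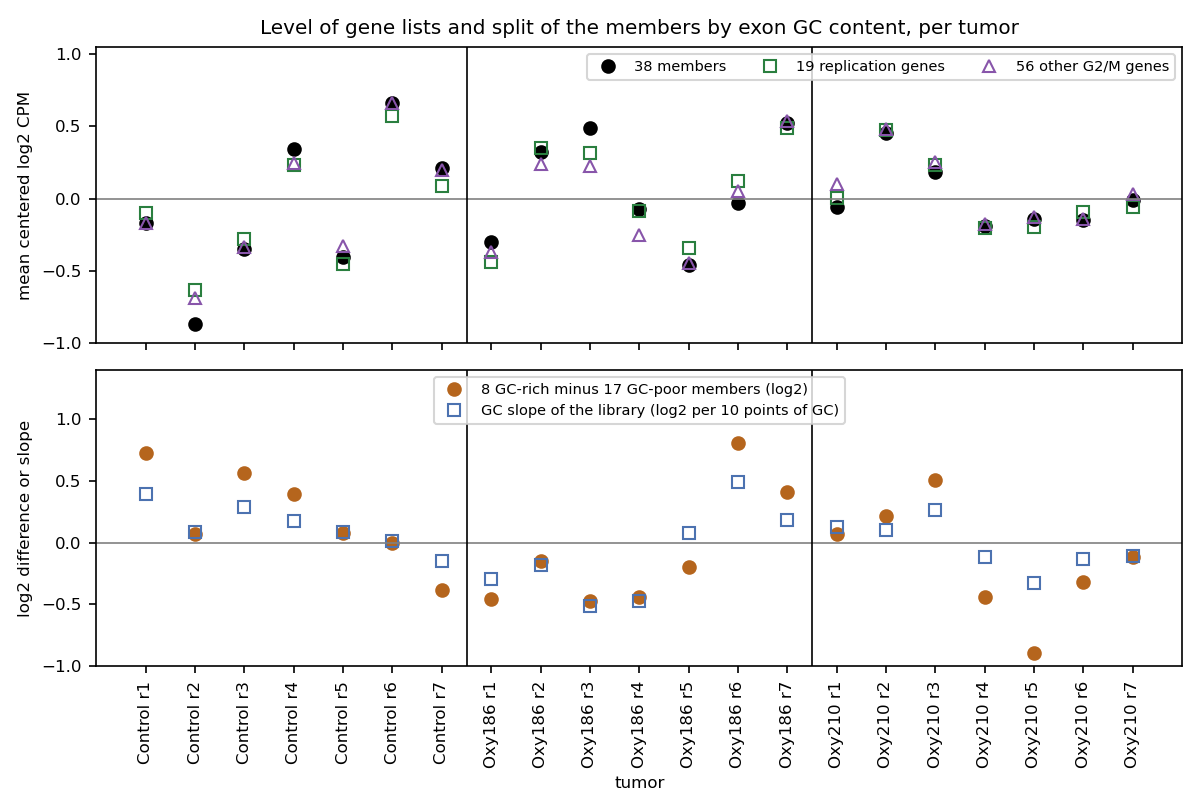
Upper panel, the mean centered log2 CPM of the 38 genes, 19 replication genes and 56 other G2/M genes in each tumor. Lower panel, the level of the 8 GC-rich minus the 17 GC-poor genes among the 38 (log2) and the slope of all genes of that library on exon GC (log2 per 10 points of GC). The lists stay together in the upper panel, and the lower panel shows the 4 tumors Oxy186 r1-r4 below 0 on both measures, as are Oxy210 r4 to r7 and Control r7.

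The study based its RNA-seq comparison of Oxy186 with Control on Oxy186 r1-r4, which it chose from the expression data. It also measured selected genes in xenografts by RT-qPCR. Because of that choice, p-values for r1-r4 against Control are too small and are given as values of that comparison alone. On these 4 tumors, 1 of 38 mitotic genes passed in edgeR, where 19.7% of 16852 genes did, and 3 had an unadjusted p under 0.05, where 34.7% of all genes did. The gene that passed was CDC25B. Its level was 6.19, 6.64, 6.18 and 6.42 log2 CPM in Oxy186 r1 to r4, and 7.15, 6.44, 7.10, 7.06, 6.82, 7.02 and 6.46 in Control r1 to r7. Oxy186 r5 to r7 were at 6.53, 7.31 and 7.31. The 4 tumors were low but overlapped with Control r2 and r7, and the log2 fold change was -0.52 ± 0.16 (SE, adjusted p 0.0360 in edgeR). BUB3, a checkpoint protein, was at 7.66, 7.79, 7.92 and 7.65 in Oxy186 r1 to r4 against a highest Control level of 7.62, with 0.33 ± 0.12 (adjusted p 0.0547 in edgeR). With the GC trend removed these 4 levels were 7.53, 7.72, 7.64 and 7.43, and Control tumors ran from 7.30 to 7.58, so the groups overlapped.

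The direction of the 38 genes in r1-r4 followed their base composition. All 17 genes with an exon GC content under 42% were above 0 (median log2 fold change 0.33), as were 10 of 13 between 42% and 50% (0.24). Of the 8 genes at 50% or more (BIRC5, KIF2C, FOXM1, UBE2C, AURKB, PLK1, CDC20 and CDC25B), 0 were above 0 (median -0.15). Over the 36 well-counted genes, Pearson r of fold change with GC content was -0.74 in r1-r4, -0.58 in all 7 Oxy186 tumors, -0.62 in Oxy210 and 0.19 in Oxy186 against Oxy210. The libraries moved with it. The slope of all genes on GC content was -0.30, -0.18, -0.51 and -0.47 log2 per 10 points of GC in Oxy186 r1 to r4, and between -0.15 and 0.40 in Control. The slope was 0.08, 0.49 and 0.18 in Oxy186 r5 to r7, and between -0.33 (r5) and 0.26 (r3) in Oxy210.

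With GC offsets, which remove each library's trend before the fit, 0 of 38 genes passed in r1-r4, where 4.05% of all genes did. The fold change of CDC25B turned to 0.14 ± 0.12 (SE, adjusted p 0.585 in edgeR) that of PLK1 from -0.47 to 0.01, and that of BUB3 fell from 0.33 to 0.10 ± 0.10 (adjusted p 0.622). Of the 8 GC-rich genes 6 were then above 0, and of the 17 GC-poor genes 13, and r with GC content was 0.20. The origin of the trend was not tested. Without the offsets CENPF (0.50 ± 0.25), KIF4A (0.49 ± 0.27) and PTTG1 (0.46 ± 0.34) had the highest fold changes in r1-r4. With them these were 0.27 ± 0.23, 0.39 ± 0.26 and 0.30 ± 0.33, and the order changed, with CDC20 and KIF4A highest at 0.39.

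**Figure D5:**
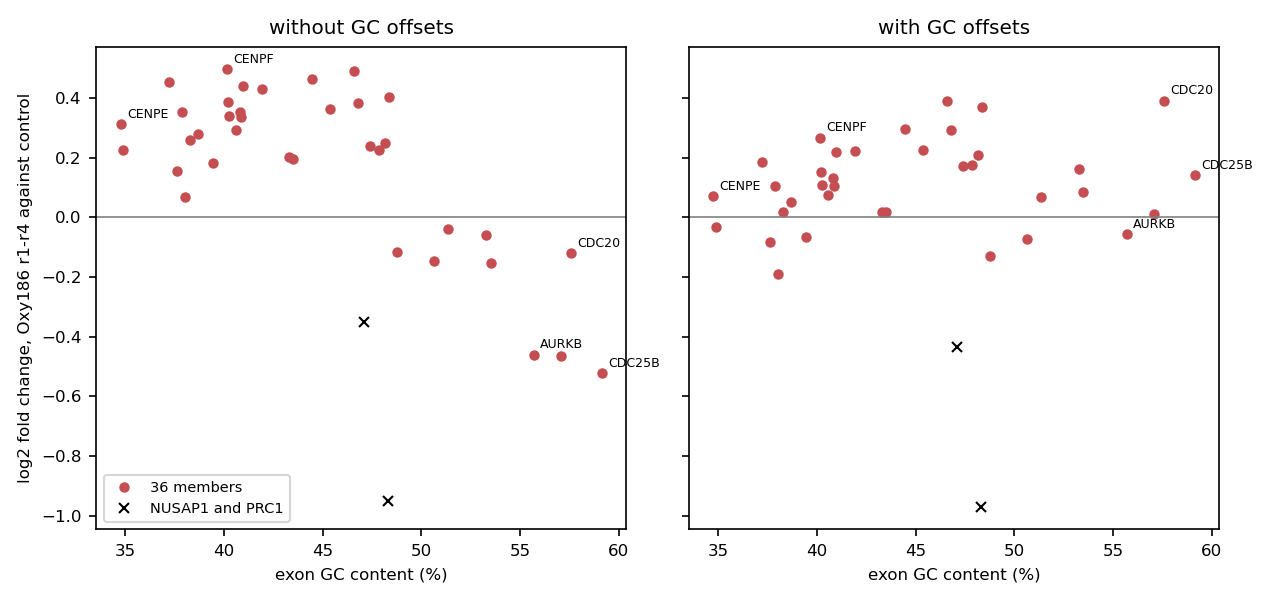
Log2 fold change in Oxy186 r1-r4 against Control of the 36 well-counted genes (circles) and of NUSAP1 and PRC1 (crosses) against exon GC content in percent, without (left) and with (right) GC offsets. On the left the 8 genes at 50% GC or more are all below 0. On the right the offsets remove each library's GC trend by design, and Pearson r of the circles with GC content is 0.20.

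Outside the 38, 4 of 56 other G2/M genes passed in r1-r4, all lower than in Control, where 19.7% of all genes passed. PKMYT1, the kinase that holds CDK1 inactive, had a log2 fold change of -2.46 ± 0.37 (SE, adjusted p 8.6e-04 in edgeR), and with GC offsets -1.40 (adjusted p 0.0192). Its level was 1.13, 2.004, 0.49 and 0.84 log2 CPM in r1 to r4, 3.17, 4.39 and 4.49 in r5 to r7, and from 2.50 to 4.21 in Control. The kinetochore gene CENPM (-1.30), separase ESPL1 (-0.86) and the APC/C activator FZR1 (-0.80) did not pass with GC offsets. In the same comparison 4 of 14 APC/C subunits passed, with ANAPC11 (-0.95) and ANAPC2 (-0.87) lower and CDC26 (0.71) and ANAPC4 (0.43) higher. Of the other lists, 3 of 12 DREAM and MuvB genes (E2F4, E2F5 and LIN52), 1 of 19 replication genes (CDT1, -0.96), 1 of 7 epithelial markers (CLDN4, -1.12) and 0 of 7 tested stroma, vessel and blood markers passed. With offsets CLDN4 still passed (-0.62), and 0 of the APC/C, DREAM and replication genes did. CDT1 then turned to 0.16, E2F4 from -0.54 to 0.08 and FZR1 to 0.25, while CDC26 was at 0.54 and LIN52 went from 0.58 to 0.41.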

How the data were processed

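RNA of 21 xenograft tumors was sequenced. The authors trimmed reads (Trimmomatic 0.39), aligned them with STAR 2.7.6a to a combined human (GRCh38.p13) and mouse (GRCm39) genome, kept human alignments and deposited raw counts of uniquely mapped reads per gene from featureCounts (Subread 2.0.1). The strand setting is not given in the sources used here, so overlapping and antisense genes are uncertain. The authors also deposited log2 CPM of Control and Oxy186 r1-r4, which recomputed values matched.

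Counts were tested with edgeR 4.0.16 (R 4.3.3) by the quasi-likelihood test, with low genes removed by filterByExpr and libraries scaled by TMM, each comparison on its own 2 groups, with genes called at a Benjamini-Hochberg adjusted p of 0.05 or less over all genes. The study itself used limma voom, which was run as an alternative with DESeq2 1.42.0. Levels are log2 CPM with a prior count of 2. RPKM was computed from counts and exon lengths. Exon GC content came from GENCODE 44 on GRCh38, and GC offsets were splines with 4 degrees of freedom per library over genes with mean log2 CPM of at least 1. Other alternatives were RLE factors, library size alone, no low-count filter, a minimum of 10 counts per library, 1 fit over 21 libraries, a fold change over 2, a replicate block, and leaving out each tumor. GC offsets that keep each library's mean were chosen after seeing the data. The test was tried on simulated data.

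The 38 genes and the other lists were chosen with earlier results of these data known. Values were given for 16 genes set by role and for the 3 largest fold changes each way in each comparison. Among the 3 lowest was also the low-count NUSAP1, at -0.16 in Oxy186, -0.37 in Oxy210 and -0.95 in r1-r4, each against Control. In Oxy210 and r1-r4 it was the lowest of the 38. Of other lists, the 2 largest each way and counts of 5 or fewer were named, the latter after their values were seen. BUB3, PKMYT1 levels, genes of the co-variation order and RPKM order were also named after their values were seen. P-values weigh the difference between groups against the spread between tumors. Protein sequences were not analysed here.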

Additional observations from a re-analysis of the deposited data

Results flagged for a closer look

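Each of the 38 genes was screened in each group for a tumor that stood apart, by a gap to the nearest other tumor that was large against the range of the group (Dixon's 95% critical value for 7 samples). Of 114 such sets 5 were flagged, and chance would flag about 5.7. All 5 were in Oxy210. Oxy210 r2 was the highest of its group for TOP2A (8.60 log2 CPM, next 8.12), KIF11 (6.16, next 5.85) and HMMR (4.95, next 4.52), a spindle and hyaluronan receptor gene. Oxy210 r5 was the highest for TTK (4.51, next 4.11), and Oxy210 r1 the lowest for NUF2 (3.69, next 4.15), a partner of NDC80 at the kinetochore.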

How the results depend on the processing

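In the 3 comparisons of 7 against 7 tumors, 0 of the 38 genes were called under each of the 25 alternatives, tumors left out included. The median fold change ranged, with 1 tumor left out, from 0.04 to 0.34 in Oxy186, from -0.03 to 0.24 in Oxy210, and from 0.01 to 0.16 in Oxy186 against Oxy210. With GC offsets it was 0.10, 0.03 and 0.06, and with offsets keeping each library's mean 0.03, 0.02 and 0.03. The medians of all genes were 0.01, 0.001 and 0.0002 with GC offsets. With offsets keeping each library's mean they were -0.06, -0.01 and -0.03. Signs of single genes were not stable, and 19, 18 and 23 of the 38 changed sign under at least 1 alternative. In r1-r4 against Control the call of 1 gene became 2 with DESeq2, RLE factors or at least 10 counts in every library (CDC25B and BUB3 each time), and 0 with GC offsets, GC offsets keeping each library's mean, the replicate block with GC offsets, or a fold change over 2. With 1 tumor left out it ranged from 0 to 4. It was 4 without Control r6 (CDC25B, BUB3, KIF4A and CENPF), 2 without Control r7, and 0 without Oxy186 r3 or r4 or Control r1, r3, r4 or r5. The 1 gene called was BUB3 in the fit over all 21 libraries and the low-count NUSAP1 without Oxy186 r1. CDC25B reversed to 0.14 with GC offsets, 0.025 with offsets keeping each library's mean and 0.21 with the replicate block and GC offsets. The median of r1-r4 lay between 0.12 and 0.40 with 1 tumor left out. It was 0.10 with GC offsets (all genes 0.005) and -0.01 with offsets keeping each library's mean (all genes -0.11).

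Same-numbered tumors were not treated as pairs in the main fits, and the labels give only a replicate number. Of 21 same-numbered pairs, 5 correlated above 0.1 (range -0.54 to 0.41), which cannot show whether they shared handling. With the replicate block, 0 genes were called in the comparisons of 7 tumors. The medians were 0.19 in Oxy186, 0.15 in Oxy210 and 0.02 in Oxy186 against Oxy210. In r1-r4 CENPF was the 1 gene called (0.82, adjusted p 0.0438 in edgeR), with a median of 0.48. Control r5 to r7 have no same-numbered tumor in r1-r4, so the block fits took that difference from Control r1 to r4 alone. This leaves out Control r6, whose level was the highest of the series (0.66). The spread between Control tumors limits what could be detected.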
